A study of Mus musculus with 5 samples.

Results

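Cyclins, cyclin-dependent kinases (CDKs) and CDK inhibitors were measured in mouse epiblast stem cells, which are pluripotent cells of the post-implantation, primed kind. Probes were taken where the gene symbol in the platform annotation begins with Ccn plus a letter and a digit, Cdk plus a digit, or Cdkn plus a digit. This gave 75 of 25697 probes and 46 of 16593 named genes. The cells were line E3, whose background one label calls hybrid, and were grown on a layer of inactivated CF1 feeder fibroblasts. Their growth medium was KSR medium, to which FGF2 had been added at 5 ng/ml. At semiconfluence they received KSR medium for 3 h with 1 uM PD0325901 (PD, an inhibitor of the kinase MEK), with 3 uM CHIR99021 (CH, an inhibitor of the kinase GSK3), with 1000 U/ml of the cytokine LIF, with all 3 agents (PCL), or without any supplement (untreated). The labels name no FGF2 in the medium of any of these 5 groups. Each group is 1 culture on 1 bead array, all from the same line, and RNA of the feeder fibroblasts may be part of each sample. In such bulk samples, fewer cells of a type and less RNA per cell cannot be told apart.

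Cyclins bind and activate CDKs. D-type cyclins act with CDK4 and CDK6 on the retinoblastoma protein and link growth factor signals to entry into DNA synthesis, E- and A-type cyclins act with CDK2, and A- and B-type cyclins with CDK1 bring cells into mitosis. Inhibitors of the Cip/Kip family bind cyclin-CDK complexes, and those of the INK4 family bind CDK4 and CDK6. Cyclin D1 is known as a target of ERK and beta-catenin signalling in other cell types, and GSK3 also acts on the stability of its protein, which arrays do not measure.

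Between 10130 and 10981 probes per array were detected (detection p-value under 0.01), and the 75th percentile of signal was 137 to 153 with the agents and 178 on the untreated array. All 9 epiblast markers of the list used here were detected, and their summed signal was 0.977 to 1.11 times the untreated sum on the arrays with an agent. Of 13 feeder fibroblast markers with a probe 10 were detected, Col1a2, Col3a1 and Postn were not, and their summed signal was 0.979 to 1.11 times the untreated sum on the arrays with an agent. Levels are log2 signals after background correction and quantile normalization. They are compared within a probe only, because brightness differs between probes. The error beside a difference is the standard error over beads (± SE), which leaves out culture, extraction and hybridisation, and no comparison has a replicate. A call means a difference of 1.5-fold or more from untreated in a gene detected on either array compared. The verbs rose and fell are kept for a limma fit with additive terms for PD, CH and LIF (adjusted p under 0.05 over 8353 genes). For each term it sets 2 arrays against the other 3. With 1 residual degree of freedom per gene, its error was taken wholly from the trend of the residuals with intensity over all genes. A gene's own departure of PCL from the added single-agent effects therefore does not enter its error, and neither do replicate cultures.

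Most of the family was detected in these cells. Of the 46 genes, 33 were detected on at least 1 array (71.7%, against 50.3% of all genes), 31 of them on all 5. All 3 D-type cyclins (Ccnd1, Ccnd2 and Ccnd3) and both E-type cyclins (Ccne1 and Ccne2) were detected on every array. Among the kinases that drive the cycle, Cdk1 and Cdk2 were detected on every array and Cdk6 on 4. Cdk3 was not detected, and its probe is annotated to a non-coding transcript record. Cdk4 and Ccnb1 are not analysed here. The inhibitors Cdkn1a (p21), Cdkn1c (p57), Cdkn2a, Cdkn2b (p15) and Cdkn2d (p19) were detected on all arrays. Both probes of Cdkn2a are annotated to the same transcript record, and which product of the locus they measure was not tested. Cdkn1b (p27) was not detected with any of its 3 probes, and Cdkn2c (p18) with neither of its 2 probes.

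The A-type cyclins Ccna1 and Ccna2 and the B-type cyclins Ccnb2 and Ccnb3 were not detected on any array. Each of these 4 genes has 1 probe, so the result is one of single probes. Other genes of mitosis were detected on all 5 arrays, such as the kinases Plk1 and Aurka, the activator Cdc20 and the topoisomerase Top2a, and 9 of 14 mitosis genes with a probe were detected. Cdk1 itself has 3 probes, of which 1 was detected on all arrays and the others on none. A probe that was not detected does not show that the transcript was absent.

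Few of these transcripts differed by 1.5-fold or more after 3 h with an agent. With PD, 1 of the 32 genes detected on either array was at least 1.5-fold different, against 3.63% of all genes. With CH it was 2 of 32, against 1.75%, with LIF 1 of 33, against 1.02%, and with PCL 2 of 32, against 5.07%. These calls belong to only 2 genes, the inhibitor Cdkn2b and the splicing-associated cyclin Ccnl1, and all of them were lower with the agent. In the authors' processed values the counts were 3 with CH, where Cdkn2d was added, and 3 with PCL, where Cdk20 was added, against 4.85% and 9.57% of all genes. In the additive fit 1 of 33 genes passed for PD (3% of all genes), 1 for CH (1.56%) and 0 for LIF (0.826%). At an unadjusted p under 0.05 the limma counts were 8 for PD (24.2%, against 11.2% of all genes), 6 for CH (18.2%, against 11.6%) and 3 for LIF (9.09%, against 7.08%). No difference between the family and the background is read from counts of 0 to 2. At 2-fold the counts were 0 with PD, 0 with CH, 0 with LIF and 1 with PCL (Cdkn2b), against 0.726%, 0.152%, 0.0893% and 1.07% of all genes.

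Most differences were small. The median absolute log2 difference of the family was 0.22 with PD, 0.19 with CH, 0.14 with LIF and 0.19 with PCL, and for all genes it was 0.16, 0.15, 0.14 and 0.19 in the same order, so the family's median was the higher one with PD and CH. The signed medians were -0.01, -0.03, -0.05 and -0.00, against -0.00, -0.00, -0.00 and 0.01 for all genes. With PD 24 of 32 genes lay within 0.3 of untreated, with CH 24 of 32, with LIF 28 of 33 and with PCL 23 of 32. All 4 comparisons use the same untreated array, so a high or low value there enters each of them. It was the highest of the 5 arrays for 8 of the 33 genes (24.2%, against 19.3% of all genes tested) and the lowest for 4 (12.1%, against 18.8%).

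**Figure D1:**
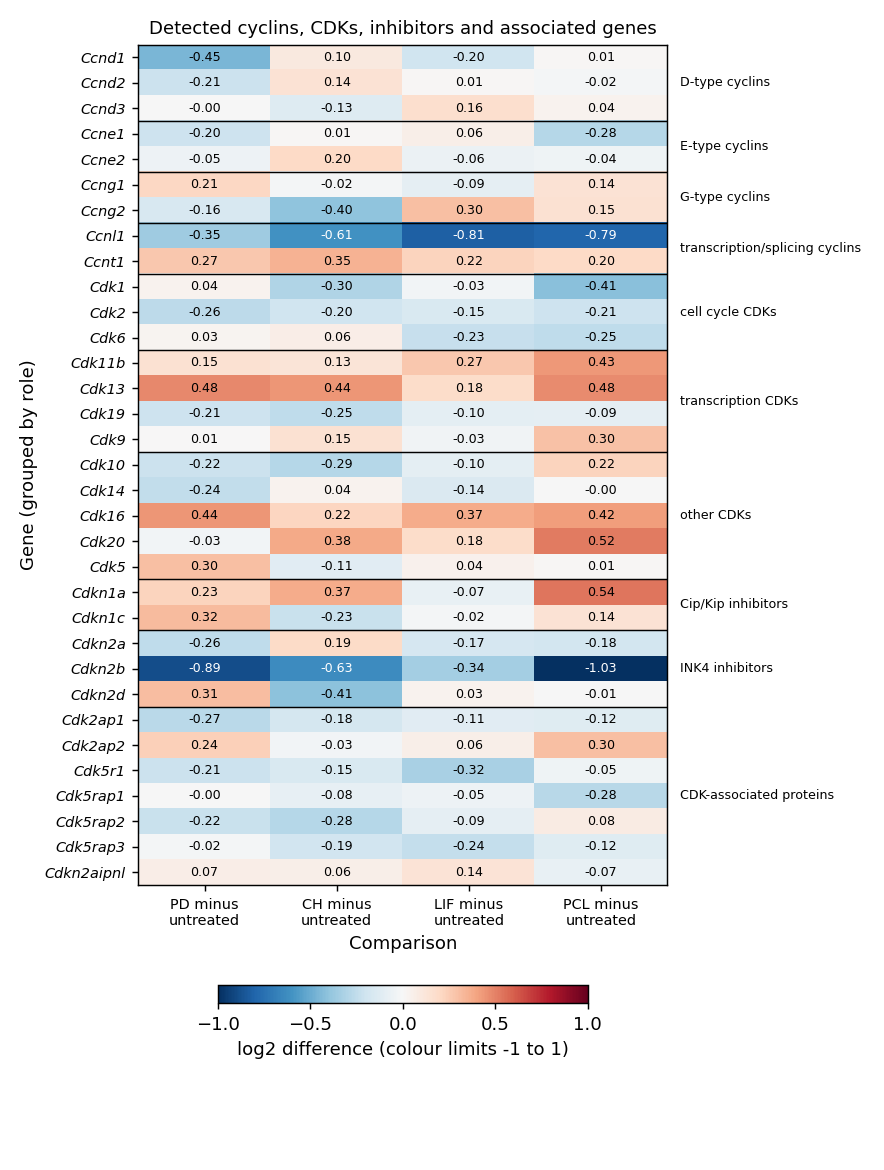
Log2 difference from the untreated array for the 33 detected genes, grouped by role, with PD, CH, LIF and PCL as columns (1 array each). Most cells are pale, Cdkn2b and Ccnl1 are lower in all 4 columns, and Ccnd1 differs most in the PD column (-0.45). Ccng2 was detected on the LIF array only.

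Among the D-type cyclins, Ccnd1 was lowest with PD and highest with CH. Ccnd1 (probe ILMN_1221503) had a log2 level of 11.22 with PD, 11.77 with CH, 11.48 with LIF and 11.69 with PCL, against 11.68 on the untreated array. That is 1.37-fold lower with PD (log2 difference -0.45 ± 0.07), with differences of 0.10 ± 0.07 for CH, -0.20 ± 0.07 for LIF and 0.01 ± 0.06 for PCL. The level on the PCL array was thus close to untreated although PCL contains PD, and it was 0.46 ± 0.07 above the PD array. In the additive limma fit neither the PD effect (-0.24 ± 0.10, SE of the fit, adjusted p = 0.246) nor the CH effect (0.31 ± 0.10, adjusted p = 0.0884) passed.

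The other probes of Ccnd1 showed the same order at both ends. Probe ILMN_2601471 had 10.93 with PD, 11.74 with CH, 11.43 with LIF and 11.49 with PCL, against 11.54 untreated. Probe ILMN_2669793 had 8.63 with PD, 9.35 with CH, 9.16 with LIF and 9.02 with PCL, against 9.01 untreated. All 3 probes were therefore lowest with PD (differences of -0.61 to -0.38), highest with CH (0.10 to 0.35) and within -0.06 to 0.01 of untreated with PCL. The LIF difference changed sign between probes (-0.20 to 0.15). When limma was fitted over all 11356 detected probes, an alternative chosen after the data had been seen, Ccnd1 fell with PD on ILMN_2601471 (-0.44, adjusted p = 0.00108) and on ILMN_2669793 (-0.42, adjusted p = 0.0177). In that fit it rose with CH on ILMN_2601471 (0.37, adjusted p = 0.0268), and 2.58% of all probes passed for PD, 1.22% for CH and 0.74% for LIF. With the mean of the 3 probes in the fit by gene, Ccnd1 fell with PD (-0.37, limma adjusted p = 0.0132), so the PD call depends on the probe used. The probes belong to the same gene and arrays and are not replicates of a culture.

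Ccnd2 and Ccnd3 moved less. Ccnd2 had 8.22 with PD, 8.58 with CH, 8.45 with LIF and 8.42 with PCL, against 8.44 untreated, so PD was again the lowest array and CH the highest (differences of -0.21 ± 0.09 and 0.14 ± 0.08). Ccnd3 had 9.78 with PD, 9.65 with CH, 9.94 with LIF and 9.81 with PCL, against 9.78 untreated. Its largest difference on this probe was 0.16 ± 0.08 with LIF, and a dimmer detected probe differed by 0.30 with PD and -0.07 with LIF. Of the 3 D-type cyclins, 0 passed the additive limma fit by gene for any agent, against 0.826% to 3% of all genes. The adjusted p was 0.586 for Ccnd2 with PD and 0.872 for Ccnd3 with LIF.

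**Figure D2:**
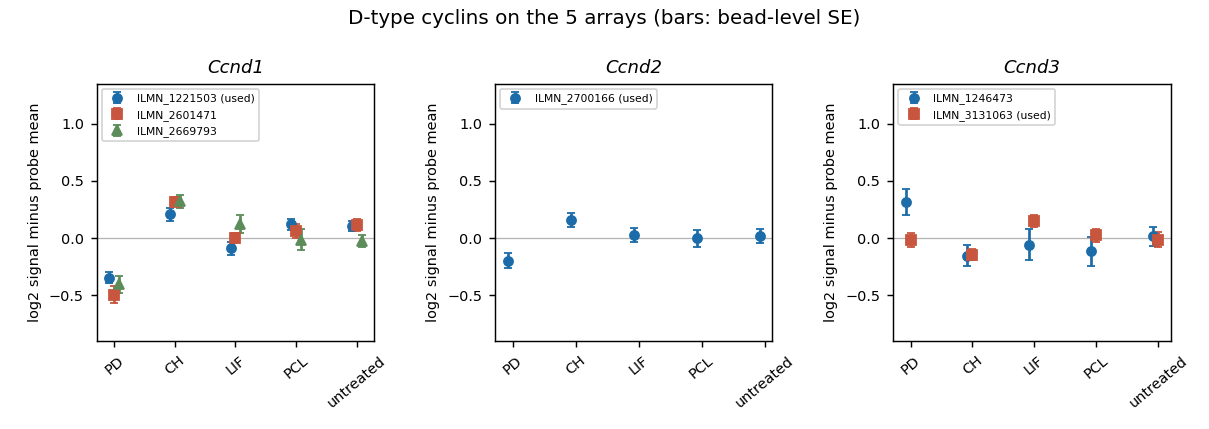
Log2 signal of each detected probe of the D-type cyclins, minus that probe's mean over the 5 arrays, with PD, CH, LIF and PCL left of untreated. Points are single arrays and bars the bead-level SE. All 3 probes of Ccnd1 are lowest with PD and highest with CH.

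The E-type cyclins, which activate CDK2, differed from untreated by -0.28 to 0.20. Ccne1 had 8.97 with PD, 9.19 with CH, 9.24 with LIF and 8.89 with PCL, against 9.18 untreated. Its level was lower on both arrays with PD, by -0.20 ± 0.15 and -0.28 ± 0.13, and the PD effect of -0.26 did not pass (limma adjusted p = 0.323). Ccne2 had 6.42 with PD, 6.67 with CH, 6.41 with LIF and 6.43 with PCL, against 6.47 untreated. Its differences were -0.06 to 0.20, the highest with CH.

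The remaining detected cyclins were G-type cyclins and cyclins of transcription and splicing. Ccng1, a transcriptional target of p53, differed by -0.09 to 0.21 on the probe used, and its 3 probes did not share a direction in any comparison. Ccng2 was detected with LIF only, at a level of 4.96 where the lowest detected level was 4.77, so no fold is given. Ccnt1, the partner of CDK9 in the elongation factor P-TEFb, was lowest on the untreated array, with differences of 0.27 for PD, 0.35 for CH, 0.22 for LIF and 0.20 for PCL.

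Ccnl1, a cyclin of the splicing machinery, was highest on the untreated array. It had 5.67 with PD, 5.42 with CH, 5.21 with LIF and 5.23 with PCL, against 6.02 untreated. The untreated level was 1.52 times that with CH, 1.76 times that with LIF and 1.73 times that with PCL, with log2 differences of -0.61 ± 0.24, -0.81 ± 0.23 and -0.79 ± 0.22. The bead-level errors of this dim probe were larger than those of Cdkn2b. PCL lay 0.98 above the added single-agent effects, and Ccnl1 passed the additive limma fit for no agent (adjusted p = 0.985 for PD, 0.616 for CH and 0.349 for LIF). With the 3 agent-free arrays' median as the comparator, Ccnl1 was not called for CH (-0.26) or LIF (-0.46), and its PD difference changed sign (0.26). The sizes also depended on the processing. The differences for CH, LIF and PCL were -0.28, -0.36 and -0.35 without background correction and -0.86, -1.22 and -1.16 in the authors' processed values.

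Of the kinases of the cell cycle, Cdk1, which drives mitosis, was lower on both arrays with CH. It had 10.25 with PD, 9.91 with CH, 10.19 with LIF and 9.80 with PCL, against 10.22 untreated. The differences were -0.30 ± 0.08 for CH and -0.41 ± 0.06 for PCL, and 0.04 and -0.03 for PD and LIF. The CH effect of -0.35 ± 0.11 (SE of the fit) did not pass (limma adjusted p = 0.0762). Cdk2 had 10.40 with PD, 10.46 with CH, 10.51 with LIF and 10.46 with PCL, against 10.66 untreated, and its 4 probes were all lower with CH (-0.27 to -0.02) and with PCL (-0.21 to -0.12). Cdk6 was close to the detection limit, at 5.05 with PD, 5.08 with CH and 4.79 with LIF, against 5.02 untreated, and it was not detected with PCL.

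The kinases that act in transcription showed small differences, and Cdk13 and Cdk11b were higher with every agent. Cdk13, which phosphorylates RNA polymerase II, was lowest on the untreated array and differed by 0.48 with PD, 0.44 with CH, 0.18 with LIF and 0.48 with PCL. Cdk11b, a partner of the cyclins L, differed by 0.15, 0.13, 0.27 and 0.43 in the same order. A dimmer detected probe of Cdk11b differed by 0.19, 0.21, 0.04 and 0.08. Cdk9 and Cdk19 differed by -0.25 to 0.30. Among the other kinases, Cdk16 was higher in all 4 comparisons (0.22 to 0.44) and Cdk20 was 0.52 higher with PCL and 0.38 higher with CH. A dimmer detected probe of Cdk20 differed by 0.26 ± 0.18 with PCL and 0.09 ± 0.18 with CH. Cdk5, Cdk10 and Cdk14 differed by -0.29 to 0.30. Of the 12 detected CDKs, 0 were called at 1.5-fold in any comparison, against 1.02% to 5.07% of all genes. In the additive limma fit 0 of the 12 passed for any agent, against 0.826% to 3% of all genes. No difference from these shares is read from so few genes. The lowest adjusted p among the CDKs in that fit was that of Cdk1 with CH. In the authors' processed values Cdk20 was called with PCL.

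Cdkn2b, the INK4 inhibitor p15, fell with PD and had the largest differences of the family with PD, CH and PCL. It had 6.19 with PD, 6.45 with CH, 6.74 with LIF and 6.05 with PCL, against 7.08 on the untreated array. The lowest levels were on both arrays with PD, and the untreated array was the highest. The untreated level was 1.85 times that with PD, 1.55 times that with CH, 1.27 times that with LIF and 2.04 times that with PCL, with log2 differences of -0.89 ± 0.12, -0.63 ± 0.10, -0.34 ± 0.13 and -1.03 ± 0.11. In the additive limma fit the PD effect was -0.58 ± 0.14 (SE of the fit, adjusted p = 0.00244), and the CH effect of -0.32 did not pass (adjusted p = 0.329). The effect was -0.34 without background correction, where it still passed. The call was lost in the authors' processed values (limma adjusted p = 0.647) and when genes below detection entered the fit (adjusted p = 0.0788), and over all alternatives the adjusted p lay between 0.000476 and 0.647. With the median of the PD-free arrays as the comparator the PD difference was -0.55, below 1.5-fold, and PCL lay 0.83 above the added single-agent effects. Of the 10 detected feeder markers, Col6a1 fell with PD (effect -0.42, limma adjusted p = 0.0224) and Lox rose (effect 0.42, adjusted p = 0.0129). That is 20% of the detected feeder markers, against 3% of all genes, and their summed signal was 1.05 times untreated with PD. Of the 9 epiblast markers, 4 fell with PD (Fgf5, Sox2, Tdgf1 and Utf1) and 1 rose (Nanog). That is 55.6% of the list, against 3% of all genes, and the list's summed signal was 0.977 times untreated with PD. With CH 2 of the 9 epiblast markers fell in the same limma fit (22.2%, against 1.56% of all genes). The part of either marker list in the level of Cdkn2b was not tested.

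Cdkn1a, the Cip/Kip inhibitor p21, was higher with PD, CH and PCL than untreated on all 3 of its probes. It had 10.01 with PD, 10.16 with CH, 9.71 with LIF and 10.33 with PCL, against 9.79 untreated on probe ILMN_2634083. The differences were 0.23 ± 0.08 for PD, 0.37 ± 0.08 for CH, -0.07 ± 0.07 for LIF and 0.54 ± 0.08 for PCL. It rose with CH in the additive limma fit (0.38 ± 0.11, SE of the fit, adjusted p = 0.0449), close to the limit of 0.05, and the PD effect of 0.23 did not pass (adjusted p = 0.386). On this probe the PCL level lay 0.02 from the added single-agent effects. Probes ILMN_2846775 and ILMN_2846776 departed by -0.14 and -0.08.

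The call of Cdkn1a for CH was not stable. Over the 3 probes the differences were 0.23 to 0.39 with PD, 0.14 to 0.37 with CH and 0.39 to 0.62 with PCL. In the fit over probes, however, the other 2 probes did not pass for CH (limma adjusted p = 0.857 and 0.284). The adjusted p of the gene lay between 0.0417 and 0.595 over the alternatives by gene, and it was 0.292 with the mean of its probes. Probe ILMN_2846775 had 7.96 with PD and 7.97 with PCL but 7.72 with CH and 7.58 with LIF, against 7.58 untreated. Probe ILMN_2846776 had 7.32 with PD, 7.29 with CH, 6.87 with LIF and 7.55 with PCL, against 6.93 untreated. CH was thus above PD on ILMN_2634083 and below it on the other 2 probes.

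The other inhibitors differed by less than 1.5-fold. Cdkn1c, the Cip/Kip inhibitor p57, had 9.57 with PD, 9.03 with CH, 9.24 with LIF and 9.40 with PCL, against 9.25 untreated. It was highest with PD and lowest with CH, and its PD effect of 0.34 did not pass (limma adjusted p = 0.0802). Cdkn2d was also highest with PD and lowest with CH, with 6.08 with PD, 5.35 with CH, 5.80 with LIF and 5.76 with PCL, against 5.77 untreated, and effects of 0.33 for PD and -0.39 for CH that did not pass (limma adjusted p = 0.396 and 0.271). In both genes PD and CH lay on opposite sides of the untreated array, and PCL lay between them, above untreated in Cdkn1c (0.14) and within 0.01 of it in Cdkn2d (-0.01). Cdkn2a, whose locus also encodes the p53 regulator Arf, had 5.46 with PD, 5.91 with CH, 5.55 with LIF and 5.54 with PCL, against 5.72 untreated, and its second probe differed in sign with PD (0.24 against -0.26).

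**Figure D3:**
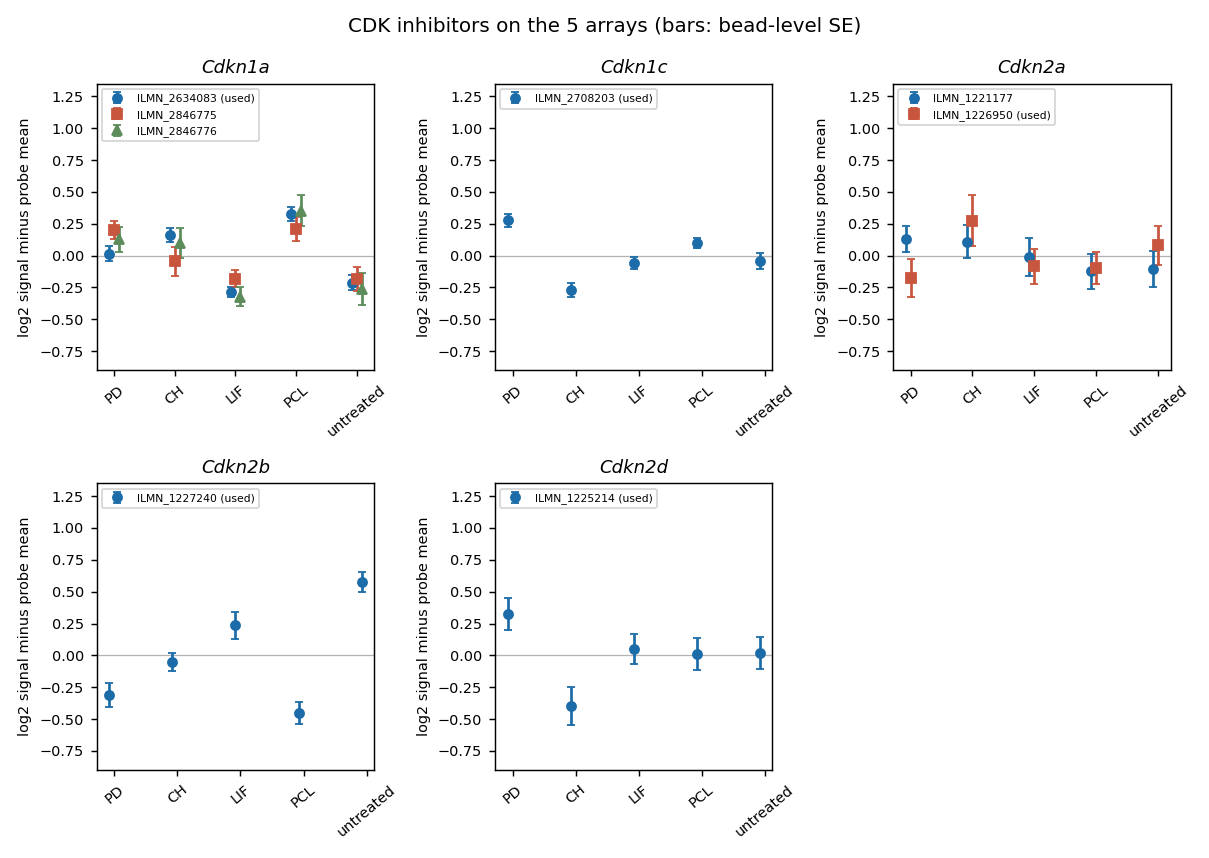
Log2 signal of each detected probe of the 5 detected CDK inhibitors, minus that probe's mean over the 5 arrays, with PD, CH, LIF and PCL left of untreated. Points are single arrays and bars the bead-level SE. Cdkn2b is highest on the untreated array and lowest with PCL and PD, and Cdkn1a is highest with PCL on all 3 of its probes.

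The promoters of the genes that passed the fit by gene are shown, so that their sequence can be read beside the values. They are the 250 bases before the annotated start (RefSeq, GRCm38.p6), and capitals mark any match to the motifs searched. Cdkn2b lies at chr4:89311033-89311282 on the minus strand, and the second listed start of Cdkn1a at chr17:29093519-29093768 on the plus strand.
Cdkn2b: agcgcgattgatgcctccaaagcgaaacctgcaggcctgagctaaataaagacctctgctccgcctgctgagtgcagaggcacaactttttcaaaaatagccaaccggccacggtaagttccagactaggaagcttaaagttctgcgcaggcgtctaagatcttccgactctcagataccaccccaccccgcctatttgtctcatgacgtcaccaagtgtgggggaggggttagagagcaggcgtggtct
Cdkn1a: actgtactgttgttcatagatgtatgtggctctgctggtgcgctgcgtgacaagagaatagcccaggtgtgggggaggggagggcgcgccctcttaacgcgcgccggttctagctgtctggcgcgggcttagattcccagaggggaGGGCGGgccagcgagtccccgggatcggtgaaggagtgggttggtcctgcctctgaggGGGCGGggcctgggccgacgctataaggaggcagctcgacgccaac
The motifs, on both strands, were those of E2F (TTTCCCGC or TTTGGCGC), Sp1 (GGGCGG), ETS factors (CCGGAAG), TCF (CTTTGAT), STAT (TTCNNNGAA) and AP-1 (TGANTCA), and on the forward strand the TATA box (TATAAA). The Cdkn2b window and the first listed Cdkn1a window held 0 matches, and the second Cdkn1a window held 2 Sp1 matches and no other. Of the 31 windows listed for 26 of the 33 detected genes, 21 held the Sp1 motif, 9 the ETS motif, 2 the E2F motif and 1 the TATA box. Over all 32851 windows the shares were 32.7% for Sp1, 6.91% for ETS, 1.30% for E2F and 7.59% for the TATA box. The TCF, STAT and AP-1 motifs were in 0 of the 31 windows, and in 3.21%, 7.02% and 6.75% of all windows. These are matches of letters in short windows and describe no binding.

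Besides kinases, cyclins and inhibitors, the symbols take in 8 genes named after their contact with a CDK or an inhibitor. Of these, 7 were detected on all arrays and Cdkn2aip was not. Of the 7, 0 were called at 1.5-fold (1.02% to 5.07% of all genes) and 0 passed the additive limma fit (0.826% to 3%). Their differences ranged from -0.32 (Cdk5r1 with LIF) to 0.30 (Cdk2ap2 with PCL). Cdk5r1, an activator of CDK5, was highest on the untreated array. Cdk2ap1, which binds CDK2, was also highest there, with differences of -0.27 for PD, -0.18 for CH, -0.11 for LIF and -0.12 for PCL. Cdk5rap2, a centrosome protein, differed by -0.28 to 0.08 and Cdk5rap3 by -0.24 to -0.02.

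The PCL array was also set against the added effects of PD, CH and LIF alone. The median absolute departure was 0.22 for the 33 genes, against 0.29 for all genes tested. The larger ones were those of Ccnl1 (0.98), Cdkn2b (0.83) and Cdk10 (0.82). Ccnl1 and Cdkn2b have 1 detected probe each and were lower with all 3 single agents than untreated. The other detected probes of Cdk10 departed by 0.25 and 0.05, and they differed in sign from the first with LIF (0.06 and 0.04, against -0.10). Ccnt1, Cdk13 and Cdk16, which were lowest on the untreated array, departed by -0.64, -0.62 and -0.61. The untreated array enters these sums through every single-agent difference. Ccnd1 departed by 0.56 and 0.46 on its brighter probes and by -0.11 on the third.

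**Figure D4:**
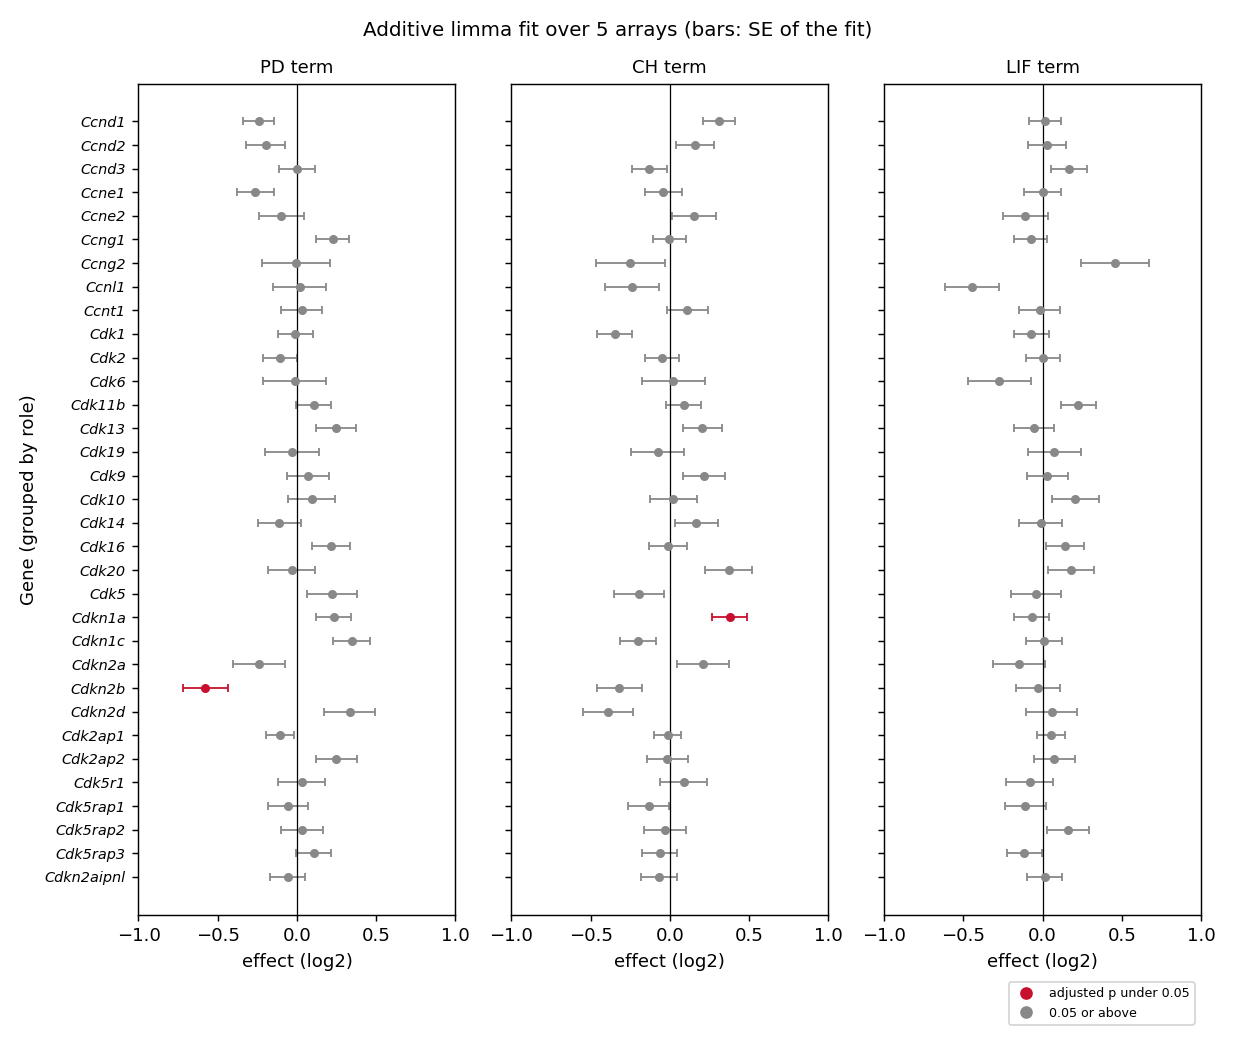
Effects of PD, CH and LIF in the additive limma fit over 5 arrays for the 33 detected genes, in log2 units, with bars for the SE of the fit. Red marks an adjusted p under 0.05, which Cdkn2b reached for PD (-0.58) and Cdkn1a for CH (0.38). Ccng2, with a LIF effect of 0.46, was detected on the LIF array only.

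Among other genes of the cell cycle 1 was called. Lists of retinoblastoma and E2F proteins, CDK activators and brakes, DNA replication genes, mitosis genes and further cyclins held 82 symbols, of which 62 had a probe and 45 were detected. In the additive limma fit 0 of the 45 passed for PD (3% of all genes), CH (1.56%) or LIF (0.826%). No difference from the background is read from counts this small. At 1.5-fold, 0 of 43 were called with CH (1.75% of all genes), 0 of 44 with LIF (1.02%) and 0 of 44 with PCL (5.07%). With PD 1 of 43 was called (3.63% of all genes). The 1 gene was Pcna, the sliding clamp of DNA polymerase, which was 0.69 ± 0.26 higher with PD on a dim probe and did not pass (adjusted p = 0.286). The medians over all detected genes of these lists were 0.04 with PD, -0.01 with CH, -0.00 with LIF and 0.03 with PCL. The direction of a list was not tested, and some of the more uneven lists are given here. Mitosis genes had positive differences with PD in 7 of 9 (median 0.07), against 3750 of 7575 of all genes. With CH they had negative ones in 8 of 9 (median -0.11), against 3972 of 7882. With LIF and with PCL their differences were positive in 5 of 9 (median 0.01 in each). CDK activators, brakes and ligase subunits had positive differences with PCL in 8 of 11 (median 0.21). DNA replication genes had positive differences with PCL in 9 of 12 (median 0.06) and with PD in 6 of 12. Retinoblastoma and E2F proteins had negative ones with PCL in 8 of 10 (median -0.09). Of all 7792 genes, 3981 were positive and 3801 negative with PCL. Cdc25a, the phosphatase that activates CDK2, differed by 0.36 with CH and 0.39 with PCL, and Cdc25c by 0.35 with PD and 0.53 with PCL. The MCM helicase genes Mcm2 to Mcm7 differed by -0.12 to 0.34, and Myc was detected with LIF only.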

How the data were processed

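Each group was measured on 1 single-colour Illumina bead array. Per the labels, 400 ng RNA was amplified by in vitro transcription for 12 h and carried a Cy-3 label. The deposited tables give, per the file headers, a linear signal intensity, its standard error over beads and a detection p-value for each probe. The submitters' processing notes name BeadStudio, with no version. The authors' processed intensity values (median 65 on each array, with 12415 to 12429 empty cells) are of unstated normalization and served as an alternative, where anything empty or below 16 was given the value 16.

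Signals were corrected by normexp with controls inferred from the detection p-values (offset 16), quantile-normalized and put on the log2 scale with limma 3.58.1 in R 4.3.3. The offset compresses differences of dim probes. Each gene took the values of its brightest probe on average, and 4777 genes had more than 1 probe. Of all probes 23978 had 1 symbol, 0 several and 1719 none. No genome was used for the expression values, and the promoter windows came from the build named with them. Where a gene was detected on 1 of 2 arrays, a call used the bound against the lowest detected level.

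The additive limma fit (lmFit, eBayes with intensity trend) was adjusted by the Benjamini-Hochberg method over 8353 genes. The prior degrees of freedom came out as infinite, and its p-values do not cover the spread between cultures. The number of arrays limits the precision. Genes named in full are the D-, E-, A- and B-type cyclins, cell cycle CDKs and inhibitors with a detected probe, and other members that were called or passed the fit. Others are given as examples of ranges. The feeder list held Col1a1, Col1a2, Col3a1, Col6a1, Thy1, Postn, Lox, Dcn, Lum, Prrx1, Twist2, Acta2, Vim and Fn1, and the epiblast list Pou5f1, Sox2, Nanog, Tdgf1, Utf1, Fgf5, Otx2, Zic2 and Dnmt3b. Members and lists were chosen with earlier results of these data known. Alternatives covered the probe, the detection limit, background correction, scaling, the authors' values, the threshold, the array compared with, the trend and the filter.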

Additional observations from a re-analysis of the deposited data

How the results depend on the processing

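No paired analysis was possible because each group has 1 array. The number of detected genes was 33, and 35 at a detection p under 0.05. The 1.5-fold counts were 1 for PD, 2 for CH, 1 for LIF and 2 for PCL. At 2-fold they became 0, 0, 0 and 1 (0.726%, 0.152%, 0.0893% and 1.07% of all genes). Leaving out background correction compresses differences by its construction. The counts were then 0, 0, 0 and 1 (1.25%, 0.355%, 0.14% and 1.86% of all genes). With the median of the 3 arrays without the agent in place of the untreated array, 0 were called for each single agent. The shares of all genes there were 2.69% for PD, 1.08% for CH and 0.616% for LIF. Scaling to a common 75th percentile gave 1 for CH (2.39% of all genes). The authors' values gave 3 for CH (4.85%) and 3 for PCL (9.57%). In the additive limma fit the count of 1 for PD became 2 with the mean of the detected probes (Cdkn2b and Ccnd1), 0 without the detection filter (16593 genes in the fit) and 0 in the authors' values. The count of 1 for CH became 0 without the detection filter, 0 without background correction, 0 without the intensity trend, 0 with 75th percentile scaling and 0 in the authors' values, and with the mean of probes the 1 gene was Cdk1 in place of Cdkn1a. For LIF it was 0 throughout. Except where a sentence says so, the cause was not tested. In the authors' values limma passed 0 genes for any agent. Over all genes the 1.5-fold calls were 64 higher and 74 lower for CH, 116 and 72 with 75th percentile scaling, and 16 and 12 without background correction. For PD they were 99 and 176, then 180 and 200, then 22 and 73 under the same settings. The limma fit passed 251 genes for PD, against 276 with the mean of probes and 185 without the filter. For CH it passed 130, against 51 without the filter, 58 with 75th percentile scaling and 75 without the trend. It passed 176 for CH with the mean of probes and 135 without background correction. For LIF it passed 69, against 43 without the filter and 28 without the trend. Differences called here kept their sign under all alternatives run. Detection against background limits Ccng2 and Cdk6.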
